A study of Mus musculus with 14 samples.

Results

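The major urinary proteins examined here were 10 genes, Mup1, Mup2, Mup7 and Mup10 as the central members and Mup3, Mup4, Mup5, Mup6, Mup20 and Mup21 as the peripheral members. They were found by their symbols among the 17552 genes with a deposited count, all 10 of them in the table. Central refers here to the near-identical genes in the inner stretch of the gene cluster and peripheral to the divergent genes toward its ends, and neither word refers to a zone of the liver. Livers came from male Apoe-deficient C57BL/6 mice (C57BL/6J in the methods), which lack apolipoprotein E, and every mouse received a Western diet. The control group had that diet alone, and the erythrodiol group had it with 10 mg/kg of erythrodiol, a triterpene of the olive. The labels give 8 weeks as the age and 8 weeks on the diets, while the methods give 12 weeks on the diets. Each of the 7 libraries of a group was made from pooled RNA of a few mice, 14 control and 15 erythrodiol mice in all, so that no library stands for 1 animal.

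Major urinary proteins are small lipocalins, barrel-shaped carriers that the mouse liver secretes and the kidney passes into urine, where they hold volatile pheromones and mark individual males. Their liver transcripts are among the most abundant of the male mouse, are driven by pulses of growth hormone through its receptor and STAT5b, and are lowered in fasting and metabolic disease. Mup20 encodes darcin, a urinary protein that itself attracts females. Mup1 has been studied as a circulating regulator of glucose and lipid metabolism. Mup4 and Mup5 are known mainly from secretory glands and nasal tissue.

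For each gene the authors deposited 1 expected count per group, summed over its 7 libraries, 122889032 counts in the control and 124686047 in the erythrodiol group. These counts therefore held no replicates for a gene, no p-value was computed, and the 95% intervals given with a ratio cover counting error only. Apart from these counts, the paper measured Mup1 by quantitative PCR in individual mice and reports it as significantly lower with erythrodiol. A level below is a gene's CPM, its counts per 1000000 counts of the group, divided by the gene's length in kilobases. A log2 ratio is the erythrodiol count over the control count after each was divided by its group's total. Apoe, the gene altered in these mice, had 9403 counts in the control and 8293 in the erythrodiol group. Control libraries 1 and 4 stood apart from the other 12 by a high share of reads without a unique gene, described below, and the pooled counts cannot be given without them. The members had been selected on these same counts, the lower expected counts of Mup genes in the erythrodiol group, so their ratios are a description.

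The classes were first compared by sequence. In GENCODE vM21 on GRCm38, the coding sequences of the 4 central members were 98.7% to 99.4% identical to each other, with 3 to 7 differing bases per pair. Peripheral members were 84.7% to 96.3% identical to each other, and 84.1% to 91.3% identical to the central ones, with 47 to 86 differing bases. Mup3 and Mup21, at 96.3%, were the closest peripheral pair. The labels central and peripheral therefore matched the coding sequences. A stretch of 60 coding bases inside 1 exon is printed for every member to make this visible, chosen after the sequences were seen as the one with the most variable positions, 22 of 60. Capitals mark the bases that differ from Mup1. The stretch lies on the minus strand of GRCm38 for all members except Mup6, which is on the plus strand, at chr4:60500440-60500499 for Mup1, chr4:60068902-60068961 for Mup7, chr4:62052637-62052696 for Mup20 and chr4:62085960-62086019 for Mup3.
Mup1: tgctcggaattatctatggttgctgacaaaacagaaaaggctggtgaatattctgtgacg
Mup2: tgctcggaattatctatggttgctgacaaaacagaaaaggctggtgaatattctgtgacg
Mup7: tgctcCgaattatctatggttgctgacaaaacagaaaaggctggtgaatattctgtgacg
Mup10: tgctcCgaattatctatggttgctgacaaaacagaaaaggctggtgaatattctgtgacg
Mup3: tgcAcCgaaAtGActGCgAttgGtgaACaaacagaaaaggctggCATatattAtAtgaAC
Mup4: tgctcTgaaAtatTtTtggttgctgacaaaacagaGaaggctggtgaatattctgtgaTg
Mup5: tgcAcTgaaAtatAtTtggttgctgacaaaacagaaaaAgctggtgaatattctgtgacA
Mup6: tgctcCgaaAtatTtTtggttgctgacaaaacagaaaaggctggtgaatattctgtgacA
Mup20: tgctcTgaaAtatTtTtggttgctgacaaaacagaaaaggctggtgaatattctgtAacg
Mup21: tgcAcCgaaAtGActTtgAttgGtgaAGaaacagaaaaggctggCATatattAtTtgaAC
Mup1 and Mup2 had the same 60 bases, and Mup7 and Mup10 each had 1 base that differed from them. Mup20 and Mup6 had 5 differing bases, Mup4 had 6 and Mup5 had 7. Mup3 had 18 and Mup21 had 17, many of them at the same positions.

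**Figure D1:**
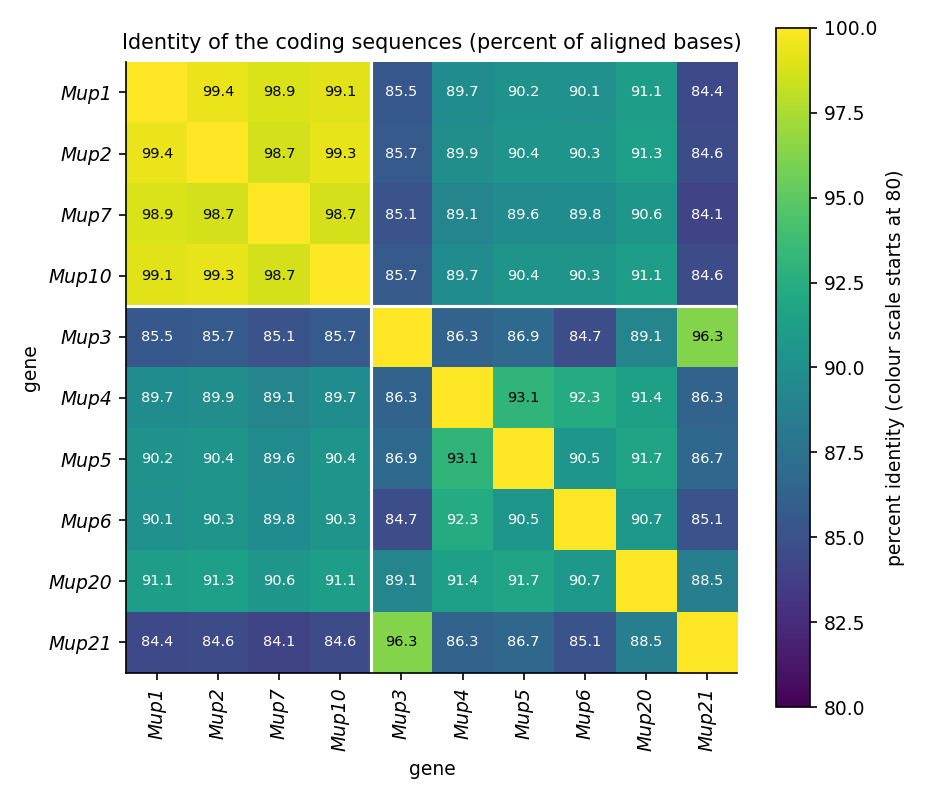
Percent identity of the coding sequences of the 10 members, each cell a pair of genes, with white lines between the 4 central and the 6 peripheral members and a colour scale that starts at 80. The central block lies between 98.7% and 99.4%, and every pair of a central with a peripheral member lies between 84.1% and 91.3%.

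The likeness of the central members extended to whole reads. With reads of 100 bases, 85.4% of the windows of that length in the Mup7 transcript were also found in a transcript of another family gene, and the same share was found for Mup10. The share was 87.2% for Mup1 and 97.3% for Mup2. Among the peripheral members it was 4.50% for Mup21, 2.94% for Mup3 and 1.33% for Mup5, and no window of Mup4, Mup6 or Mup20 was shared. Among these transcripts and by exact match, a read from a central member can thus rarely be given to 1 gene by 1 end alone, while nearly every read from a peripheral member can. The nearest relative of Mup2 was Mup11, with 1 differing coding base, and that of Mup20 was Mup5, with 45.

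Upstream sequence was compared for the 7 members with an entry among the RefSeq promoters of GRCm38.p6, which leave out Mup1, Mup5 and Mup20. The 100 bases before the start of each entry are printed because they hold a motif shared by nearly all of them, TATATAA, in capitals. This motif was looked for after the promoters had been read. All are on the minus strand except Mup6, with Mup2 at chr4:60139857-60139956, Mup7 at chr4:60070476-60070575, Mup4 at chr4:59960668-59960767 and Mup3 at chr4:62087318-62087417.
Mup2: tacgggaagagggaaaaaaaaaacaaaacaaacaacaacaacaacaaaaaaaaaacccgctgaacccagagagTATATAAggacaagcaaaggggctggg
Mup10: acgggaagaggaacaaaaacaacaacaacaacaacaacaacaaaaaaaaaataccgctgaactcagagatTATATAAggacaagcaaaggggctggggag
Mup7: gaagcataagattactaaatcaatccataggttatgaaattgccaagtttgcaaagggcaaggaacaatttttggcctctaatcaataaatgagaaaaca
Mup4: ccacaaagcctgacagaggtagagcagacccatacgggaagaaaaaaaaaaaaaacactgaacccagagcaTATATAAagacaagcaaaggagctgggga
Mup6: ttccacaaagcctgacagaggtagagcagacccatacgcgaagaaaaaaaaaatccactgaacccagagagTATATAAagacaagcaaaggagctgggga
Mup3: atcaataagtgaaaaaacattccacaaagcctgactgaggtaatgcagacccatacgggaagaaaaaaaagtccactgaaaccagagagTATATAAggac
Mup21: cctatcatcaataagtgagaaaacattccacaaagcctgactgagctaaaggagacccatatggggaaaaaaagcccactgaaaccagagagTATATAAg
TATATAA was found in 6 of the 7 entries, against 3.24% of all 32851 promoters of the same 300 bases on either strand. It began 27 bases before the start in Mup2, 30 in Mup10, 29 in Mup4 and Mup6, 11 in Mup3 and 8 in Mup21. The 6 entries with the motif were 85.5% to 95.6% identical to each other where aligned, so they share other words as well. The Mup7 entry begins further upstream than the others: 166 of its bases aligned with the Mup2 entry at 97.6% identity, and the motif is not in its window. Upstream of the box Mup2 and Mup10 carry a stretch of a with scattered c, in which the longest run of a has 10 bases, and Mup4 carries an unbroken run of 14. The words TTCNNNGAA for STAT5, TTGCNNAA for CEBP factors, which takes in TTGCGCAA, and the glucocorticoid receptor's paired word had no match on either strand in these 7 windows, against 8.30%, 10.8% and 0.475% of all promoters (0.183% for TTGCGCAA). TATAAA, which overlaps TATATAA where the next base is a, matched in Mup4 and Mup6, against 13.6% of all promoters. A match or its absence in 300 bases says nothing about binding.

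The 10 members spanned a wide range of levels in liver. In the control group the level was 20938 for Mup20, 16585 for Mup7 and 9174 for Mup3. Mup2 followed with a level of 2225, Mup1 with 2013 and Mup21 with 1153. The remaining members were far lower, with levels of 6.78 for Mup10, 3.45 for Mup4, 1.99 for Mup5 and 0.871 for Mup6. Mup20 had the fourth highest level of all genes in the table, and Mup7 the fifth. The order in the erythrodiol group was the same but for Mup1 and Mup21, which changed places at levels of 711 and 738. No pair of neighbours in either order had overlapping counting intervals, which do not include the error of dividing reads among genes. Low and high members occurred in both classes: Mup10 was the lowest of the central members, and Mup20 and Mup3 stood near the top among the peripheral ones.

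**Figure D2:**
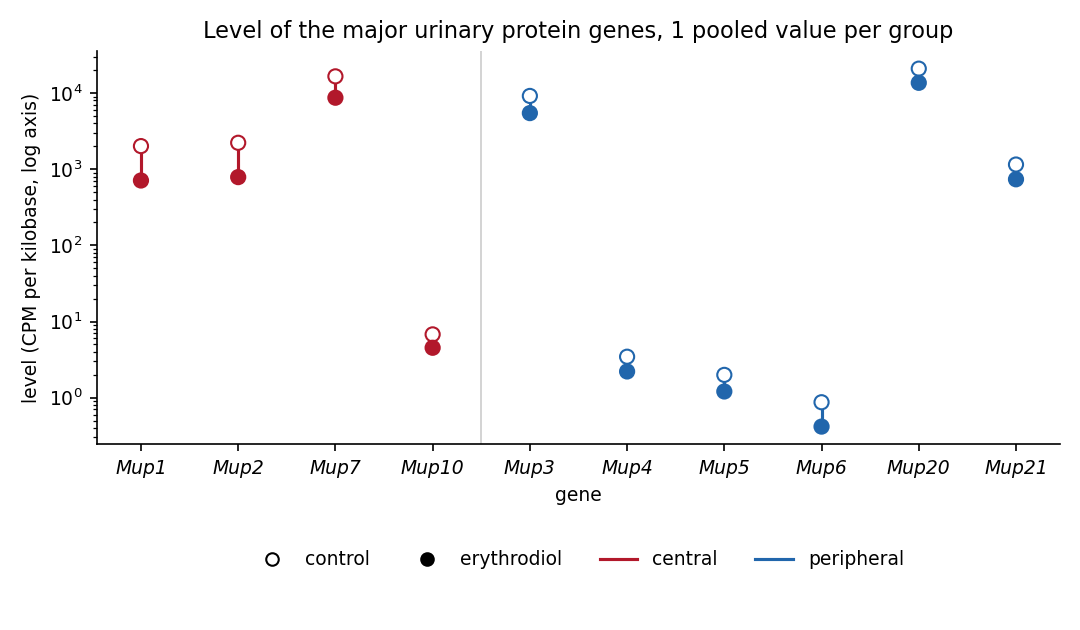
Level of each member as CPM per kilobase on a log axis, with open circles for the control group, filled circles for the erythrodiol group, and 1 pooled value per group. Mup20, Mup7 and Mup3 lie highest in both groups, from 20938 to 5459, while Mup10, Mup4, Mup5 and Mup6 have levels of at most 6.78.

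All 10 members had a lower level in the erythrodiol group. Mup1 had 218879 expected counts in the control and 78479 in the erythrodiol group, and Mup2 had 208380 and 74851. Both were 2.83-fold and 2.82-fold lower, with log2 ratios of -1.50 (95% interval -1.51 to -1.49) for each. Mup7, the most abundant central member, went from 2031997 to 1080682 counts, a log2 ratio of -0.93 (-0.94 to -0.93). Mup10 went from 757 to 513 counts, a log2 ratio of -0.58 (-0.75 to -0.42), the highest of the 10. Central members thus held both the lowest ratios and the highest.

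The peripheral members lay closer together. Mup20, the darcin gene, had 2318301 counts in the control and 1532580 in the erythrodiol group, a log2 ratio of -0.62 (-0.62 to -0.62). Mup3 had 1034893 and 624817 counts, a log2 ratio of -0.75 (-0.75 to -0.74). Mup21 had 106973 and 69448 counts, a log2 ratio of -0.64 (-0.66 to -0.63). These 3 abundant genes carried nearly all reads of the peripheral class, and none was 2-fold lower. Mup4 went from 304 to 198 counts, a log2 ratio of -0.64 (-0.91 to -0.38). Mup5 went from 196 to 120 counts, a log2 ratio of -0.72 (-1.07 to -0.39). Mup6 had 61.8 and 30 counts, too few for the minimum of 100 counts used below, and its log2 ratio of -1.06 had an interval of -1.75 to -0.42. The wide intervals of the 4 rare genes, Mup4, Mup5, Mup6 and Mup10, each held the ratios of Mup20 and Mup21, so no difference among them was detectable at this depth.

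Of the 9 members reaching 100 counts over both groups, 2 were lower past 2-fold, Mup1 and Mup2. Over all genes with that many counts, 73 of 13291 were lower past 2-fold, which is 0.549%. At 1.5-fold, 8 of the 9 were lower, all but Mup10, against 3.14% of genes, and for a lower value of any size the background was 28.8%. Since the members were proposed from these ratios, nothing is read from these counts. Among genes with at least 100 counts, ranked from the lowest ratio up, Mup1 was 22 and Mup2 was 24, Mup7 was 94 and Mup20 was 356.

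**Figure D3:**
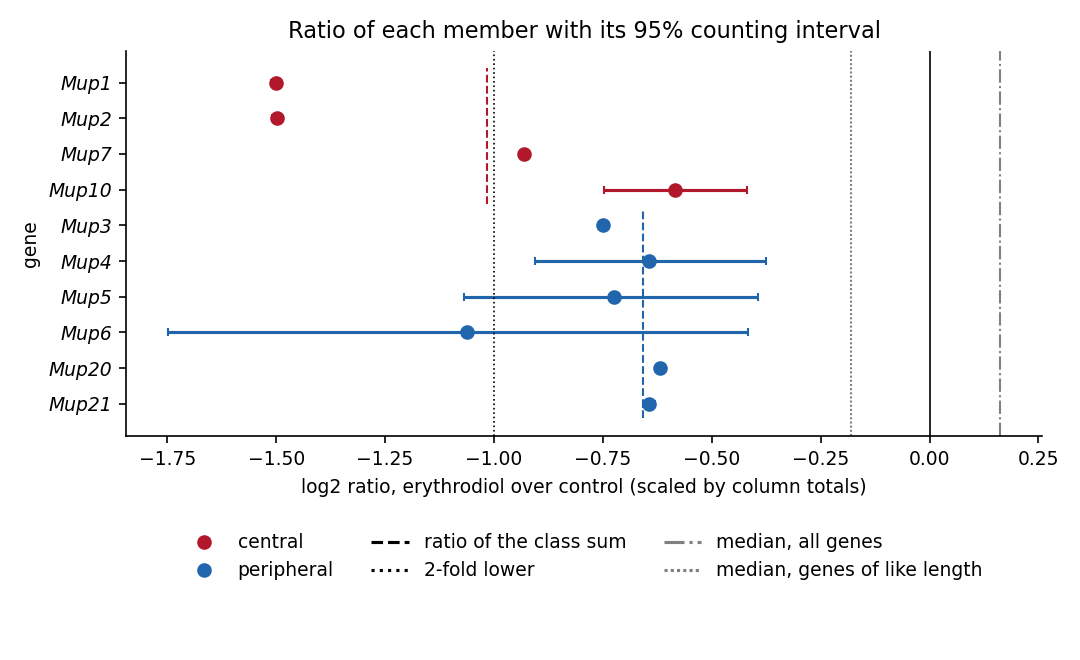
Log2 ratio of each member, erythrodiol over control, with its 95% counting interval, central members in red and peripheral members in blue. Dashed lines give the ratio of each class sum, the dotted line marks 2-fold lower, and grey lines mark the medians over all genes (0.16) and over genes of like length (-0.18). Mup1 and Mup2 stand apart at -1.50, and the other members lie between -1.06 and -0.58.

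Summed over the class, central members went from 2460014 to 1234524 counts, from 2.00% to 0.990% of all counts. Their log2 ratio was -1.02 (-1.02 to -1.01), which is 49.5% of the control value. Peripheral members went from 3460728 to 2227192 counts, from 2.82% to 1.79% of all counts, a log2 ratio of -0.66 (-0.66 to -0.65) and 63.4% of the control value. The central sum was therefore lower by 0.36 on the log2 scale than the peripheral one (counting interval of the difference -0.36 to -0.35). For each peripheral count there were 0.711 central counts among controls and 0.554 with erythrodiol. The difference rested in part on Mup1 and Mup2, without which it was -0.27, and the sum of the central members without Mup7 had a ratio of -1.50. Mup7 held 2031997 of the 2460014 central counts of the control group. Taken as the median of single genes, the ratio was -1.21 for the central and -0.68 for the peripheral members. All 10 members together went from 4.82% to 2.78% of all counts, a log2 ratio of -0.80 (-0.80 to -0.79).

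How low these values are depends on the scale. The median log2 ratio of genes with at least 100 counts was 0.16, so most genes lay above 0 on this scale. Relative to that median the members had log2 ratios from -1.66 to -0.75, and 3 of the 9, Mup7 with Mup1 and Mup2, were then lower past 2-fold, against 1.03% of all genes on that scale. The members' transcripts are short, 577 to 997 bases, and genes of 700 to 1000 bases outside the family had a median log2 ratio of -0.18. Relative to these 542 genes the members had log2 ratios from -1.32 to -0.40. Each member was lower under every scaling tried. Of all genes past 2-fold, 71.6% were lower by column totals, 91.9% relative to the median gene and 36.7% relative to genes of like length.

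RefSeq places 12 further Mup genes of the table in the cluster, Mup8, Mup9, Mup11 to Mup19 and Gm21320, which RefSeq calls Mup22. Their coding sequences were 98.3% to 99.8% identical to the central members and at most 91.5% identical to the peripheral ones. All 12 were lower in the erythrodiol group, with log2 ratios from -1.51 for Mup13 to -0.76 for Gm21320. Lower past 2-fold were 6 of the 12, against 0.549% of all genes with at least 100 counts. The family was examined because of its lower counts, so nothing is read from this number. Gm21320 had more reads than any member, 3183137 counts in the control and 1903644 in the erythrodiol group. Joining the 12 genes with the 4 central members gave a log2 ratio of -0.89 and a difference from the peripheral sum of -0.24, smaller than that of the 4 alone. A pair of pseudogenes inside the cluster, which belong to none of these sums, lay nearer to 0. Mup-ps12 had 3095 and 2515 counts, a log2 ratio of -0.32 (-0.40 to -0.24). Mup-ps16 had 5796 and 5446 counts, a log2 ratio of -0.11 (-0.16 to -0.06), which turned to 0.07 relative to the genes of like length. The whole family of 22 genes took 12.5% of all control counts and 6.98% of all erythrodiol counts, and its log2 ratio was -0.84.

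The rarer of the near-identical genes had the wider range of ratios. Of these 16 genes, 6 had at least 500000 counts in the control, a limit set after the values were seen, and they held 91.1% of the counts. Their log2 ratios lay between -0.98 and -0.76, and Mup7 was one of them. The other 10 genes lay between -1.51 and -0.58 and included Mup1, Mup2 and Mup10. Of these 10, 8 were lower past 2-fold, against 0.549% of all genes with at least 100 counts. Nothing is read from this count, since the limit was set on the same values. The remaining 2 of the 10 were Mup10 at -0.58, with 757 control counts, and Mup8 at -0.90, with 3768. Mup13, with 2115 control counts, had the lowest ratio, -1.51.

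**Figure D4:**
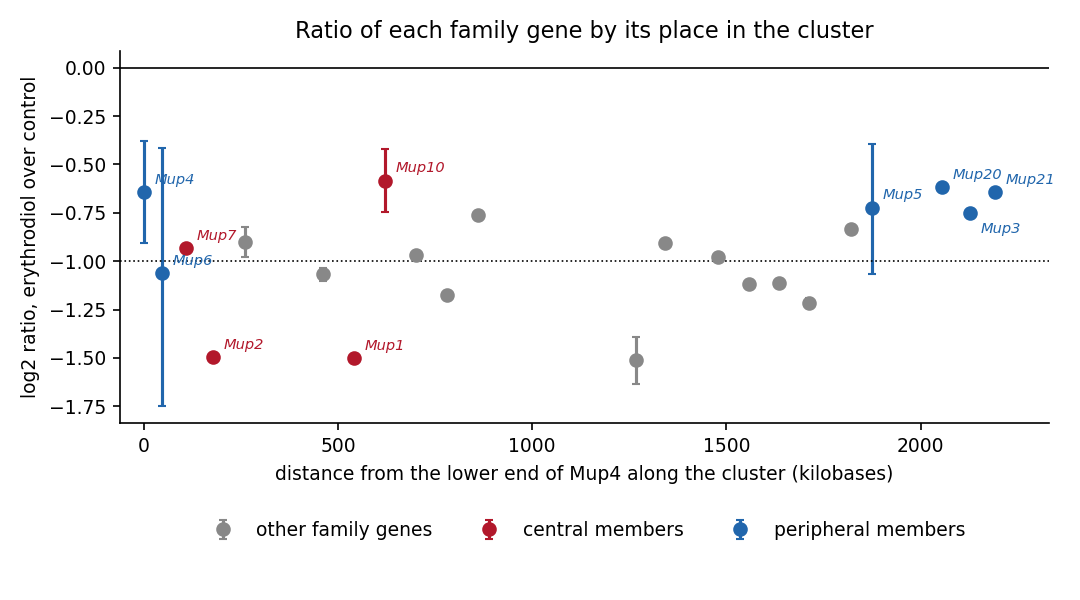
Log2 ratio of each of the 22 family genes, erythrodiol over control, against the distance in kilobases from the lower end of Mup4, with 95% counting intervals. Peripheral members in blue lie at both ends of the cluster, central members in red toward its lower end, and all 22 genes lie below 0.

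Along chromosome 4 of GRCm38 the family covered 2194 kilobases. Mup4 lay at one end at chr4:59956804-59960667, followed by Mup6 at chr4:60003481-60007274. The central members came next, Mup7 at chr4:60066469-60070475, Mup2 at chr4:60135913-60139977, Mup1 at chr4:60498012-60501960 and Mup10 at chr4:60578260-60582276. The other peripheral members lay at the far end, Mup5 at chr4:61831319-61858043, Mup20 at chr4:62011337-62054143, Mup3 at chr4:62083476-62087317 and Mup21 at chr4:62147832-62150841. Mup7 and Mup2, next to each other, differed by more than their intervals, while the intervals of the neighbours Mup4 and Mup6 and of Mup5 and Mup20 overlapped. Mup1 and Mup2, with the same ratio, were separated by Mup8 and Mup9.

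Reads that could belong to several genes were divided by the authors' estimation, which leaves counts that are not whole. All 10 members had such a count in at least 1 group, beyond a tolerance of 0.005, and so did all 22 family genes. Among all genes 19.2% did, and 18.2% of the 3278 genes outside the family with at least 10000 counts. The divided reads therefore touched every member, central or peripheral, although Mup4, Mup6 and Mup20 shared no window with another GENCODE transcript of the family. Pseudogenes and the added transcripts, to which reads were also aligned, were not searched for windows. The search counted exact matches only, so it does not cover reads aligned with mismatches. A count that is not whole does not show how many reads were divided. For Mup4, Mup6 and Mup20 the log2 ratios were -0.64, -1.06 and -0.62. Ratios of single central members depend on how the reads were divided among 16 near-identical genes and the added transcripts of the cluster. They are less certain than the intervals show.

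The share of reads without a unique gene was known for each library, over all genes and not for the family alone. It was 20.5% ± 9.51 (SD, n = 7) of the gene-mapped reads in the control and 15.7% ± 2.77 (SD, n = 7) in the erythrodiol libraries. The 7 control libraries ranged from 10.9% to 36.9% with a median of 18.1%, and the erythrodiol libraries from 12.8% to 20.7% with a median of 14.8%, so that the groups overlapped. The difference of -4.81 percentage points did not exceed the spread between libraries, with p = 0.261 in a two-sided exact permutation test. Control libraries 1 and 4 stood highest with 36.9% and 29.5%, and without both the control mean was 15.4% and the difference 0.291 points (p = 0.881, same exact test). Libraries 1 and 4 held 28.9% of the control clean reads and 48.2% of the control read pairs without a unique gene.

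**Figure D5:**
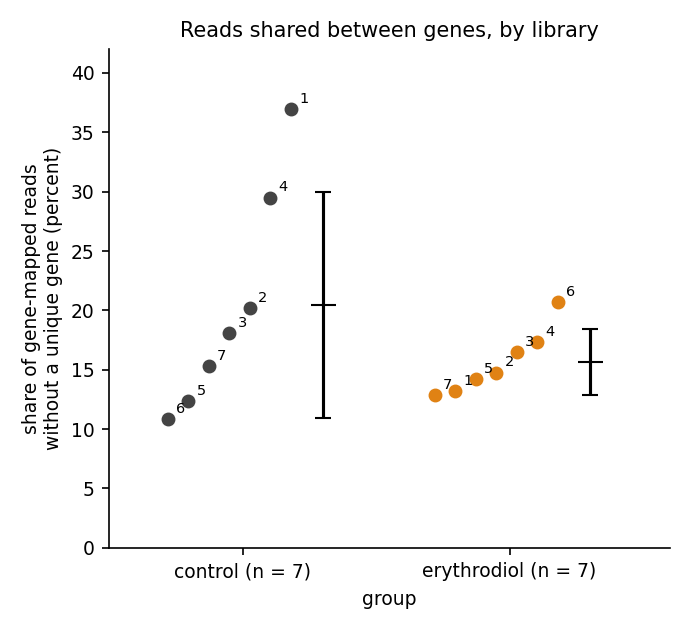
Share of gene-mapped reads without a unique gene in each library, in percent, points labelled with the replicate number and bars giving the mean ± SD of 7 libraries. Control libraries 1 and 4 lie at 36.9% and 29.5%, above all others, and the remaining control libraries lie between 10.9% and 20.2%, within or near the range of the erythrodiol libraries.

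Read pairs without a unique gene numbered 25224564 in the control and 19496420 in the erythrodiol libraries, a difference of 5728145. The family had 6608433 more counts in the control than in the erythrodiol group, and the 10 members had 2459025 more. Since the counts of a gene are summed over 7 libraries, how much of the lower family counts came from control libraries 1 and 4 was not tested. Libraries differed in depth as well, with 34856340 to 55244294 clean reads in the control and 47669656 to 48058606 in the erythrodiol group.

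The assembled annotation, pooled over all libraries, held 13 added coding transcripts for 6 of the members. Mup2 had 4, Mup5 had 3, Mup1 and Mup20 had 2 each, and Mup7 and Mup3 had 1 each. Inside the cluster it also held 36 coding loci without a reference gene, 19 overlapping a family gene, of which 2 overlapped a member. None of the 16 deposited splicing events that differed between the groups lay in a family gene. With 22 family genes among 17552 and so few events, nothing is read from this.

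A list of 25 genes around Mup transcription mixed activators, repressors and growth hormone targets such as Igf1 and Igfals. Of these, 23 were higher and 2 lower in the erythrodiol group, with a median log2 ratio of 0.30. Among all genes 71.2% were higher, with a median of 0.16. The part of the listed genes in the members' ratios was not tested. Ghr, the growth hormone receptor, had a log2 ratio of 0.25 (0.24 to 0.27), and Stat5b, which carries its signal to the nucleus, had 0.30 (0.26 to 0.34). Zhx2, a zinc finger and homeobox factor that is known to govern Mup levels between mouse strains, had 0.45 (0.36 to 0.53). Onecut1, a liver transcription factor, was the 1 listed gene past 2-fold, with 947 and 1975 counts and a log2 ratio of 1.04 (0.93 to 1.15). Of all genes, 0.218% were higher past 2-fold.

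Other genes with sex-biased liver expression gave no single direction. Of 21 male-biased genes, 1 was lower past 2-fold, Moxd1 with 608 and 149 counts and a log2 ratio of -2.05 (-2.32 to -1.79), and their median was 0.04. Of 22 female-biased genes, 13 had at least 100 counts. Among these 13, Cyp2b9 with 6015 control and 1524 erythrodiol counts, Cyp2b13 at -3.66 and Hao2 at -1.94 were lower past 2-fold, and Cyp2a4 at 1.35 and Cyp17a1 at 1.14 were higher. The female-biased median was 0.04. Over all genes with at least 100 counts, 0.549% were lower and 0.218% higher past 2-fold. Lipocalin relatives and other small carriers, 12 with at least 100 counts, had a median log2 ratio of -0.42 and none was past 2-fold. Outside the family, the 5 genes with at least 10000 counts and the ratio nearest to that of all members summed were Rplp1 at -0.80, Leap2 at -0.79, Mrpl12 at -0.80, Rida at -0.79 and Usmg5 at -0.80.

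Markers showed the tissue to be liver: 8 hepatocyte genes had a median log2 ratio of 0.17, none past 2-fold, and their summed CPM was 109944 in the control and 110818 in the erythrodiol group. All 6 Kupffer cell markers were lower in the erythrodiol group, with a median of -0.67 and a summed CPM of 869 and 535. Marco, a scavenger receptor, was the 1 of them past 2-fold at -1.07. All 5 bile duct markers were lower as well, with a median of -0.55 and none past 2-fold. Of 7 neutrophil genes, 3 had at least 100 counts and all 3 were lower past 2-fold, Prtn3 at -3.18, S100a8 at -1.19 and S100a9 at -1.11. Over all genes with at least 100 counts, 28.8% were lower by any size and 0.549% past 2-fold. Sinusoidal endothelial and stellate cell markers had medians of -0.06 and 0.04. Of 9 pancreatic genes, 3 had at least 100 counts, and among these Amy2a5 was lower past 2-fold at -2.48. The 6 rarer pancreatic genes went both ways. Ctrb1 was higher with 8 and 42 counts, a log2 ratio of 2.37 (1.26 to 3.67), and Cpa1 with 2 and 15 counts, 2.89 (0.78 to 6.06). Try4 and Cel were also higher, and Prss2 at -0.93 and Pnlip at -0.16 were lower, each with a wide interval that included no change. No striated muscle gene reached 100 counts, and of 8 salivary or lacrimal gland genes 2 did, with log2 ratios of -0.40 and 0.53. In pooled liver RNA fewer cells of a type and less RNA per cell cannot be told apart, and the part of these markers in the members' ratios was not tested.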

How the data were processed

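Liver RNA from 7 control and 7 erythrodiol pools was sequenced in paired reads of 100 bases. The authors mapped reads with HISAT, assembled transcripts with StringTie and Cufflinks tools, and aligned reads to reference and added coding transcripts with Bowtie2. With RSEM the authors made the deposited expected counts, 1 per gene and group, not normalized. Tool versions are not given in the sources used here. The authors deposited counts of clean reads and mapping rates in percent for each library, and a log2 ratio, p-value and q-value per gene, which were not used.

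The members and gene lists were chosen with earlier results of these data known. All 10 members are named, with the other symbols of Mup and a digit, listed genes past 2-fold with at least 100 counts, Ghr, Stat5b and Zhx2, and the 5 genes outside the family with at least 10000 counts nearest in ratio to the member sum. The pseudogenes Mup-ps12 and Mup-ps16 and the 6 rarer pancreatic genes were named after their values were seen. Counts were divided by column totals. Intervals of ratios were exact binomial intervals at 95%, and cover counting error only. Without gene values per library, the planned test across genes was not made. The depth per library was 34856340 to 55244294 clean reads. Nothing says that pools shared a day or litter by number. The share of reads without a unique gene was the mapped less the uniquely mapped percent, over the mapped percent, and its p-values measure the spread between pools. Family genes were matched by gene ID to RefSeq and, for coding sequences, to GENCODE vM21, taking per gene the coding sequence nearest the median length, and aligned globally with Biopython 1.88. The computation was tested on simulated data: of 200 of 17552 genes changed 4-fold between the groups, 100% were recovered, and 95.2% of intervals of unchanged genes held 0. The simulated counts had counting error alone and were scaled by totals that left out the changes. They therefore check the arithmetic, and cannot speak to spread between libraries or to the choice of scaling. Tables and tests were made in Python 3.11.15 with scipy 1.17.1, pandas 2.3.3 and numpy 2.4.6, figures with matplotlib 3.10.9, and TMM factors of the counts with edgeR 4.0.16 in R 4.3.3. Other scalings, minimum counts, folds, sums without single genes and libraries left out were tried as alternatives.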

Additional observations from a re-analysis of the deposited data

Results flagged for a closer look

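Control library 3 had 64.33% of its clean reads mapped to genes, the lowest of the 7 control libraries and far from the next by Dixon's criterion at 95%. Of 6 tests of this kind, 1 passed, and chance alone passes about 1 group in 20. Mapping to the genome was not among the 6 tests. There control library 3 had 76.66% of its clean reads mapped, against 91.98% to 94.64% in the other libraries. To a unique place of the genome it had 41.62% mapped, against 55.27% to 69.06% in the others. Its depth of 34856340 clean reads was also the lowest. Its share of gene-mapped reads without a unique gene was 18.1%, the median of the control libraries. Its part in the pooled counts of the members was not tested.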

How the results depend on the processing

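Every member, both class sums and the sum of all members were lower in the erythrodiol group under each alternative run, and all 60 alternative values of single members were below 0. Scaled by totals without Mup symbols, by the median gene, by TMM factors, by the upper quartile and, added after seeing the data, relative to genes of like length, the log2 ratio of the central sum was -1.08, -1.18, -1.17, -1.19 and -0.84. That of the peripheral sum was -0.73, -0.82, -0.81, -0.83 and -0.48, and that of all members -0.86, -0.96, -0.95, -0.97 and -0.62. The central sum was -0.98 without Mup1, -0.98 without Mup2, -1.50 without Mup7, -0.94 with all Mup symbols outside the peripheral members, and -0.89 with all such RefSeq genes. The peripheral sum was -0.74 without Mup20 and -0.62 without Mup3, and the whole RefSeq family gave -0.84. The number of members lower past 2-fold was 2 by column totals and relative to genes of like length, where 0.549% and 0.331% of all genes were, and 3 under the other scalings, where 0.715% to 1.08% of all genes were. It was 3 with a minimum of 10 counts or none, against 1.77% and 6.09% of genes, and 8 at 1.5-fold, against 3.14%. The central minus peripheral difference was -0.53 by medians of genes, -0.37 per kilobase, -0.24 with all RefSeq genes outside the peripheral members and -0.27 without Mup1 and Mup2. A pseudocount of 1 and rounded counts left these values within their counting intervals.

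Paired by replicate number (the replicate block), the share of reads without a unique gene differed by -4.81 points (p = 0.297, exact sign-flip test), and with each library left out in turn by -6.41 to -2.06 points. The lowest was without control library 6 and the highest without control library 1. It turned to 0.291 points without control libraries 1 and 4, a choice made after seeing the data. The fewer libraries are the only change in that alternative, and no alternative passed p under 0.05. No paired analysis was possible for the genes because each group has 1 pooled value. Genes of all classes under 100 counts, such as Mup6, were limited by depth.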
